A study of Saccharomyces pastorianus Weihenstephan 34/70 with 7 samples.

Results

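The lager yeast Weihenstephan 34/70 was compared between stationary phase fermentations of maltose wort with and without the peptidase preparation Flavourzyme. The comparison rests on 3 of the 7 arrays of the series: 1 array from maltose wort with Flavourzyme (maltose Flavourzyme) and 2 arrays from maltose wort without it (maltose control). The other 4 arrays, 2 from glucose wort with Flavourzyme and 2 from glucose wort without it, served as a measure of spread and for the test of whether the 2 worts differed. In every fermentation the wort had been brought to 21 °Plato with a syrup, rich in maltose or in glucose, and all arrays came from the same strain. Every probe set that names 1 S. cerevisiae gene was used, and where a gene had several the one with the highest mean over all arrays was kept, which gave 5635 genes, all of which were tested. The Flavourzyme side has no replicate, so its values are those of 1 sample. The study's text says that the samples of different conditions were not all taken at the same hour, so Flavourzyme and sampling time cannot be told apart here. Nothing in the labels says whether the 2 maltose controls came from separate fermentations, and p-values measure only the spread between these samples, which may be technical.

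Flavourzyme is a mixture of fungal endopeptidases and exopeptidases that releases free amino acids and short peptides from wort protein. Brewer's yeast takes these up through permeases, and it turns on genes for poor nitrogen sources, such as proline, when good ones run out. Genes of amino acid synthesis follow Gcn4, which becomes active when amino acids are scarce, and genes of ribosomal proteins are transcribed in proportion to growth, under the control of the TOR and protein kinase A pathways. Weihenstephan 34/70 is a hybrid of S. cerevisiae and a second Saccharomyces species, and the array probes were designed on S. cerevisiae, so transcripts of the 2 parental copies of a gene cannot be told apart.

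The values are log2 signals of the array, so that a difference of 1 is a doubling, and they are not compared between genes. The 2 maltose controls agreed closely: over the 5635 genes they correlated with r = 0.997, differed by a median of 0.0846 and differed by 1 or more in 5 genes. The 2 glucose controls differed by 1 or more in 1212 genes and the 2 glucose Flavourzyme arrays in 91 genes. The maltose Flavourzyme array correlated with r = 0.935 with each maltose control, with r = 0.948 with glucose control 1, with r = 0.907 and 0.908 with the glucose Flavourzyme arrays and with r = 0.883 with glucose control 2, so that its closest array was not one of its own wort. Spike-in transcripts of the array, 4 bacterial RNAs with poly-A tails, averaged 9.10 on the maltose Flavourzyme array against 6.88 and 6.88 on the maltose controls, and the 7 rRNA probe sets averaged 9.97 against 8.89 and 8.97. The difference between the 3' and 5' probe sets of ACT1, a sign of RNA integrity, was 1.06 against 0.804 and 1.01. The part of the spike-in and rRNA signals in the results was not tested. Of 4916 probe sets for S. pombe, which have no target here, 0 lay 1 or more beyond both maltose controls, and their 95th percentile of 4.95 is used as the background level.

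With Flavourzyme, 51 genes rose and 61 fell in maltose wort (limma, adjusted p under 0.05 over 5635 genes), which is 1.99% of the genes in either direction, 0.905% higher and 1.08% lower. All but PUT1 and FLO9 were close to the threshold: the other 110 had adjusted p from 0.0435 to 0.0498 (limma). The absolute change of these 112 genes was at least 1.37 on the log2 scale, the median of those that rose was 1.92 and that of those that fell was −1.91. Over all genes the median difference was −0.04, and 56.7% of the genes differed by less than 0.5. An unadjusted p under 0.05 was reached by 1246 genes. A second description leaves the other groups aside and asks how far the Flavourzyme array lay beyond the nearer maltose control: 332 genes (5.89%) were at least 1 above both controls and 427 (7.58%) at least 1 below both, and 53 and 41 of them were at least 2 above or below. By any distance, 2415 genes (42.9%) were above both controls and 2774 (49.2%) below both. All 112 genes called by limma were among those at least 1 beyond both controls, and 647 genes at that distance were not called.

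**Figure D1:**
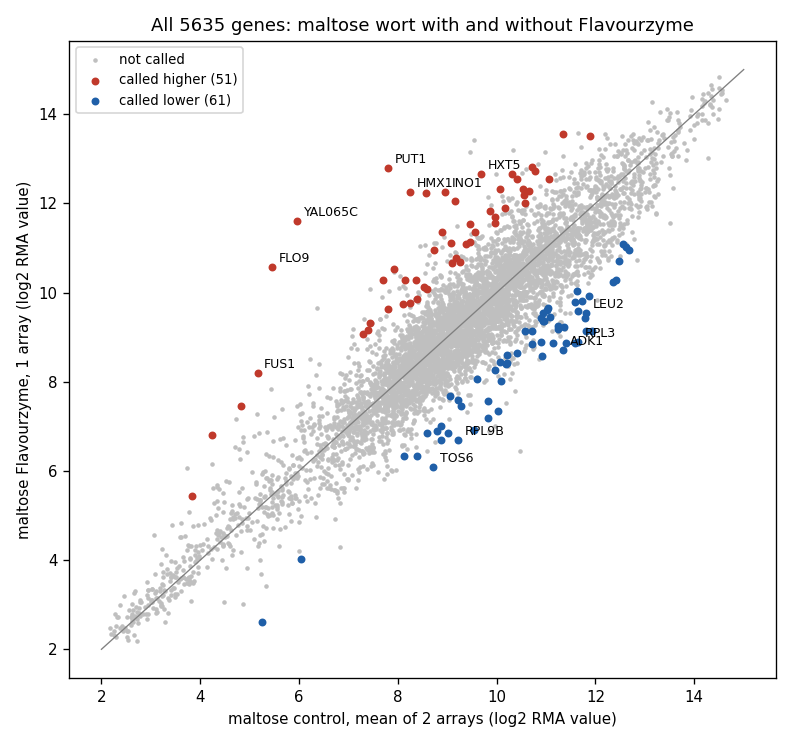
Each point is 1 of 5635 genes, with the mean log2 value of the 2 maltose control arrays on the x axis and the log2 value of the single maltose Flavourzyme array on the y axis, and the line marks equal values. The 51 genes called higher (red) include PUT1, FLO9 and YAL065C, which lie 4.98 to 5.65 above the control mean, and the 61 called lower (blue) lie at most 2.78 below it.

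The number of calls depends on the arrays that estimate the spread. Leaving out maltose control 1, maltose control 2, glucose Flavourzyme 1 or glucose Flavourzyme 2 in turn left 0 genes called (523 to 1006 genes at an unadjusted p under 0.05), leaving out glucose control 1 or glucose control 2 gave 2166, and a fit of the 3 maltose arrays alone gave 3632. Of 163 genes named here, 25 had a fold change that moved by over 1.5 times under an alternative, and 0 of these 25 were called. On the maltose Flavourzyme array 29 of the 51 genes that rose had the highest value of all 7 arrays, and 45 of the 61 that fell had the lowest. Of all 5635 genes, 1141 had their highest value on this array and 729 their lowest. The called genes were selected for a difference from the maltose controls, so these counts are no independent support.

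The largest rise of a metabolic gene was that of PUT1, the proline oxidase that opens the degradation of proline in the mitochondrion. PUT1 had a log2 value of 12.79 with Flavourzyme, against 7.67 and 7.95 in the maltose controls, a difference of 4.98 ± 0.26 (SE) or 31.5-fold (adjusted p = 0.00929). The 4 glucose arrays were all high, at 13.47 and 13.28 with Flavourzyme and 13.81 and 13.58 in the controls, so the maltose controls stood alone as the low arrays. PTR2, the transporter of di- and tripeptides, also rose, at 11.55 against 10.004 and 9.95 (1.58 ± 0.24, adjusted p = 0.0461), and the glucose arrays were between 12.36 and 12.77. PTR2 was the 1 called member of 6 measured genes of peptide transport (16.7%, against 0.905% of all genes called higher). OPT1 and OPT2, oligopeptide transporters, had differences of −0.00 and −0.14, UBR1, the ubiquitin ligase that degrades the repressor of PTR2, had 11.01 against 10.77 and 10.95, and DAL5, a dipeptide and allantoate permease, was below background on all 3 arrays. CUP9, the repressor of PTR2, had 8.81 against 9.46 and 9.60 (adjusted p = 0.15).

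The other genes of proline use did not pass the test. PUT2, the second enzyme of the pathway, had 11.78 against 11.08 and 11.05, PUT4, the proline permease, 8.43 against 7.38 and 7.01, and the activator PUT3 7.32 against 6.95 and 7.11. The 3 genes of proline synthesis, PRO1, PRO2 and PRO3, lay below both controls and were not called, with PRO3 at 9.30 against 10.30 and 10.36 (−1.03 ± 0.42, adjusted p = 0.226). Among 28 targets of nitrogen catabolite repression, the genes held off by good nitrogen sources, 1 was called higher (PUT1), 6 were at least 1 above both controls (21.4%, against 5.89% of all genes) and 0 at least 1 below (7.58% of all genes). The called share was 3.57%, against 0.905% of all genes, and the median of this list was 0.24. MEP1, an ammonium permease, had 10.46 against 7.94 and 7.92 (2.53 ± 0.61, adjusted p = 0.0901), and the vacuolar carboxypeptidase CPS1 had 11.99 against 10.36 and 10.41 (1.60 ± 0.42, adjusted p = 0.105). GAP1, the general amino acid permease, was below background, at 4.61 against 4.47 and 4.47.

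Amino acid permeases went in both directions. Their list of 29 genes, none of them called, also holds genes of the amino acid sensor SPS, so its shares are not those of permeases alone. Of the 29 genes, 4 were at least 1 above both maltose controls (13.8%, against 5.89% of all genes) and 5 at least 1 below (17.2%, against 7.58%). The list median was 0.12. The 5 lowest were BAP3, BAP2, TAT2, DIP5 and TAT1. BAP3, a permease for branched-chain amino acids, had 7.02 against 10.01 and 9.93 (−2.95 ± 1.20, adjusted p = 0.227). BAP2 had 8.79 against 10.75 and 10.76, TAT2, the tryptophan permease, 7.51 against 9.47 and 9.45, DIP5, the permease of acidic amino acids, 9.60 against 11.29 and 11.26, and TAT1 9.06 against 10.46 and 10.36. AGP1, a permease of broad range, had 9.50 against 10.12 and 10.22 (adjusted p = 0.851). BAP2, DIP5 and AGP1 were picked after their values were seen. The glucose controls disagreed on all of them but TAT1: TAT2 had 6.12 on glucose control 1 and 10.97 on glucose control 2. On the other side, MUP3, a methionine permease of low affinity, had 11.47 against 10.24 and 10.25 (1.22 ± 0.21, adjusted p = 0.0587), and AGP2, a permease and regulator at the plasma membrane, had 7.39 against 5.87 and 5.44. Of the lists of protein breakdown within the cell, the 18 genes listed with vacuolar and cytosolic peptidases, not all of them peptidases, had a median of −0.00. The 35 genes of autophagy had 0.08 and the 42 of the proteasome 0.16, with 0 members called in each of the lists. Of the 18 genes 3 were at least 1 above both controls (16.7%, against 5.89% of all genes) and 0 at least 1 below. The 3 were CPS1, the aminopeptidase APE1 (1.32 ± 0.87) and STE13 (1.12 ± 0.37), which processes the alpha-factor.

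Of 9 lists of amino acid synthesis, the 5 with the lowest median differences were those of lysine, the branched-chain amino acids, threonine, the aromatic amino acids and histidine. This division was made after the medians were seen. The medians were −1.22 over 9 genes of lysine synthesis, −0.97 over 12 genes of branched-chain synthesis, −0.88 over 5 genes of threonine and homoserine synthesis, −0.87 over 11 genes of aromatic synthesis and −0.55 over 7 genes of histidine synthesis. In these lists 7, 11, 5, 11 and 7 members lay below both maltose controls, as did 49.2% of all genes. The other 4 lists had medians nearer to the −0.04 of all genes. They were 0.06 over 10 genes of arginine synthesis and −0.03 over 30 genes of sulfate assimilation, methionine and cysteine. Serine and glycine had −0.04 over 15 genes, and glutamate, glutamine, aspartate and asparagine had −0.22 over 12 genes. Over the 111 measured genes of all 9 lists, 3 fell (2.7%, against 1.08% of all genes) and 2 rose (1.8%, against 0.905%). At least 1 below both controls were 21 (18.9%, against 7.58% of all genes), and 4 were at least 1 above (3.6%, against 5.89%). The study itself named some of these genes from the same arrays, which makes them no independent evidence of a direction.

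LEU2, the dehydrogenase of leucine synthesis, fell to 9.54 with Flavourzyme, against 11.82 and 11.80 in the maltose controls (−2.27 ± 0.24, adjusted p = 0.0435). ILV3, the dehydratase shared by isoleucine and valine synthesis, fell to 9.59 against 11.68 and 11.60 (−2.05 ± 0.24). Both had the lowest of their 7 values on this array. HIS1, the first enzyme of histidine synthesis, fell to 8.06 against 9.55 and 9.64 (−1.54 ± 0.22, adjusted p = 0.0441), and its 4 glucose values, from 9.69 to 9.94, were close to those of the maltose controls. ILV1, which opens isoleucine synthesis, had 8.18 against 10.25 and 10.05 (−1.97 ± 0.49, adjusted p = 0.0942). LEU3, the activator of leucine genes, had 7.09 against 6.90 and 6.93. In threonine and homoserine synthesis none of the genes was called, with HOM2 at 10.03 against 11.32 and 11.31, HOM3, the aspartate kinase, at 9.01 against 10.25 and 10.29, and THR1 at 9.31 against 10.20 and 10.18.

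In lysine synthesis 5 enzymes lay at least 1 below both controls (55.6%, against 7.58% of all genes) and none was called. The list median was 9.11 on the maltose Flavourzyme array, 10.15 and 10.26 on the maltose controls and from 9.16 to 9.68 on the glucose arrays. LYS9 had 8.53 against 10.32 and 10.30 (−1.78 ± 0.36, adjusted p = 0.0687) and LYS12, the homoisocitrate dehydrogenase, 9.80 against 11.24 and 11.34 (−1.49 ± 0.26, adjusted p = 0.0588). LYS20, a homocitrate synthase, had 12.14 against 12.02 and 12.04, while its isozyme LYS21 had 9.11 against 10.15 and 10.58. The pathway's activator LYS14 was at 10.27 against 10.22 and 10.26. In aromatic synthesis TRP2 had 7.16 against 8.80 and 8.60, ARO4 8.01 against 9.53 and 9.28 and ARO1, which carries out several steps of the shikimate pathway, 10.38 against 11.60 and 11.45, while TRP3 and TRP5 were within 0.1 of the control means.

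The 2 called members of the list of sulfate assimilation, methionine and cysteine rose (6.67%, against 0.905% of all genes). STR3, a cystathionine beta-lyase, reached 11.12 with Flavourzyme, against 8.94 and 9.20 (2.05 ± 0.27), and MET13, a methylenetetrahydrofolate reductase, 11.84 against 9.82 and 9.90 (1.97 ± 0.28). MET13 had its highest value of the 7 arrays, with the glucose arrays from 10.08 to 11.11. The list as a whole had a median of −0.03, and 14 of its 30 members lay above both controls and 14 below both, so these 2 genes did not move with the list.

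The enzymes that charge tRNAs, the aminoacyl-tRNA synthetases, had lower values on the maltose Flavourzyme array than on the maltose controls in both compartments. The glucose arrays, with and without Flavourzyme, lay near the maltose Flavourzyme array. The median log2 value of the mitochondrial list was 8.69, against 10.30 and 10.25 on the maltose controls and 8.48 to 8.96 on the glucose arrays. For the cytoplasmic list it was 9.49, against 10.26 and 10.33 and against 9.06 to 9.59. Of the 15 genes of the mitochondrial list, 13 lay below both maltose controls (49.2% of all genes did), 8 by at least 1 (53.3%, against 7.58%), and the median was −1.10. The called share was 6.67%, against 1.08% of all genes. MSF1, the phenylalanyl-tRNA synthetase, fell to 8.64 against 10.41 and 10.42 (−1.77 ± 0.23, adjusted p = 0.0435). MSW1, for tryptophan, had 8.69 against 10.55 and 10.57 (adjusted p = 0.063), MSY1, for tyrosine, 8.60 against 10.30 and 10.25, and ISM1, for isoleucine, 8.41 against 10.39 and 10.32. MSK1 and MSR1, for lysine and arginine, were at −0.02 and 0.05. MSS116 of this list, whose value of −1.10 is the list median, is an RNA helicase of the mitochondrion and no synthetase. Of the 23 genes of the cytoplasmic list, not all of them synthetases, 22 lay below both controls and 5 by at least 1 (21.7%). The median was −0.64 and the called share 4.35%. HTS1, the histidyl-tRNA synthetase, fell to 8.40 against 10.14 and 10.22 (−1.79 ± 0.27, adjusted p = 0.0461), and KRS1, picked after its values were seen, had 8.51 against 10.85 and 10.88 (−2.36 ± 0.80, adjusted p = 0.165).

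The largest group among the genes that fell was that of the cytoplasmic ribosomal proteins. Of 128 measured genes, 21 fell (16.4%, against 1.08% of all genes) and 0 rose. At least 1 below both maltose controls were 76 (59.4%, against 7.58%), and 125 were below both by any distance (49.2% of all genes were). The median was −1.20, and the median log2 value of the group was 10.52 on the Flavourzyme array against 11.76 and 11.76 on the maltose controls. The 4 glucose arrays, at 10.78 and 10.49 with Flavourzyme and 10.76 and 10.15 without it, lay near the maltose Flavourzyme array. The large and the small subunit were alike, with medians of −1.22 over 70 genes and −1.19 over 52 genes. Since 25 of the genes have probe sets that can bind several transcripts, the group was also read without them, and its median over the other 103 genes was −1.25 with 17 genes called.

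RPL3, a protein of the large subunit, fell to 8.89 with Flavourzyme, against 11.72 and 11.56 in the maltose controls (−2.75 ± 0.40 or 6.7-fold, adjusted p = 0.0441). RPS22A of the small subunit fell to 7.34 against 9.92 and 10.13 (−2.69 ± 0.37) and RPL5, which carries the 5S rRNA into the ribosome, to 9.14 against 11.80 and 11.80 (−2.66 ± 0.36). In all 3 the Flavourzyme array was the lowest of the 7, and the glucose arrays lay between it and the controls, except for RPS22A on glucose Flavourzyme 1, which at 10.01 was between the 2 controls. Of gene pairs that encode the same protein, both copies fell for RPL9 (RPL9A −1.63 ± 0.24 and RPL9B −2.52 ± 0.34) and for RPL8 (RPL8A −2.54 ± 0.32 and RPL8B −2.73 ± 0.35). The copies of RPL8 are nearly identical and the probe set of RPL8A is a shared one, so the 2 values are not separate measurements. RPS29A, with the largest fall of all genes called (−2.78 ± 0.41), RPL18B (−2.12 ± 0.25) and RPL2A (−1.59 ± 0.25) are likewise read from shared probe sets. RPL9A and RPL2A were picked after their values were seen. At the other end, RPS14B had 0.44, RPL14B 0.12 and RPS7B 0.05, and these 3 genes, picked after their values were seen, were the members above both controls. The probe set of RPL14B is a shared one.

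Ribosomal proteins of the mitochondrion were also lower on the Flavourzyme array. Of 74 genes, 72 lay below both maltose controls (49.2% of all genes did), 22 by at least 1 (29.7%, against 7.58%), and the median was −0.83, with group medians of 10.81 against 11.74 and 11.75. The group medians of the glucose arrays were 10.72 and 10.83 with Flavourzyme and 10.32 and 11.16 without it. RSM27 of the small subunit was the 1 called gene, at 9.66 against 11.03 and 11.04 (−1.37 ± 0.22, adjusted p = 0.0483), a called share of 1.35% that is near the 1.08% of all genes. The 43 translation factors had a median of −0.40, and of these YEF3, elongation factor 3 of fungi, fell to 11.08 against 12.58 and 12.55 (−1.49 ± 0.24). YEF3 was between 12.68 and 13.21 on the glucose arrays, so the Flavourzyme array was again the lowest.

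The genes that assemble ribosomes did not share the lower values of the ribosomal proteins. Of 162 genes of ribosome biogenesis, 2 rose (1.23%, against 0.905% of all genes) and 3 fell (1.85%, against 1.08%). At least 1 above both controls were 7 (4.32%, against 5.89%), and 8 were at least 1 below (4.94%, against 7.58%). The median was −0.08, which turned to 0.03 when the arrays were normalized over the S. cerevisiae probe sets alone. MDN1, the large ATPase that removes assembly factors from the precursor of the large subunit, had 10.79 against 9.14 and 9.24 (1.60 ± 0.23), and BFR2, a factor of the small subunit, 10.13 against 8.50 and 8.56 (1.60 ± 0.23). NIP7, a factor of the large subunit, fell to 7.58 against 9.87 and 9.76 (−2.24 ± 0.22), and NSA2 and BRX1, of the same pathway, fell by 1.70 and 1.65. Subunits of the RNA polymerases had a median of −0.07, with 0 of 49 genes called.

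**Figure D2:**
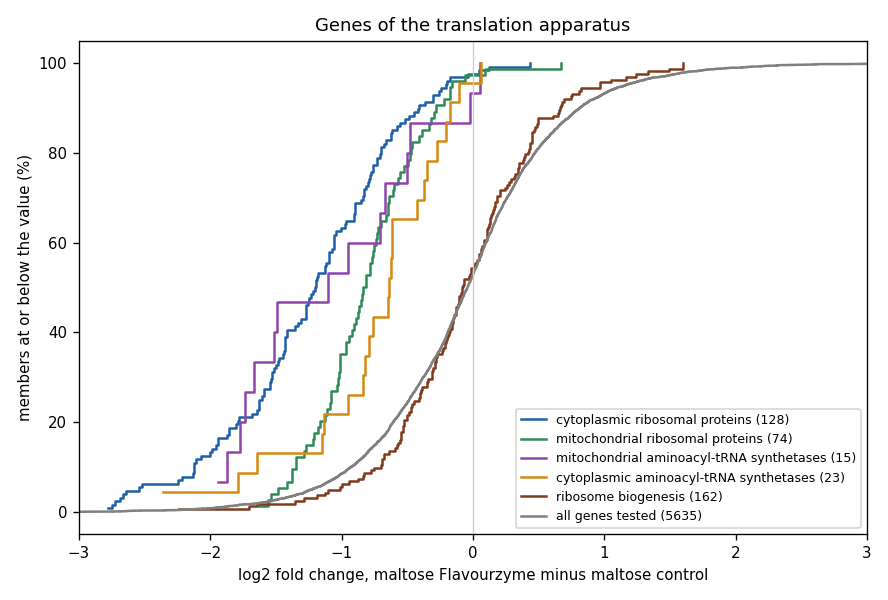
Each curve gives the share of a gene list (y axis, percent of members) at or below a log2 difference between maltose Flavourzyme and maltose control (x axis). The curves of cytoplasmic and mitochondrial ribosomal proteins and of both groups of tRNA synthetases lie to the left, with medians of −1.20, −0.83, −1.10 and −0.64, and ribosome biogenesis, at −0.08, follows the curve of all genes, at −0.04.

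Among the genes that rose, the largest changes were those of flocculins, the cell wall lectins by which brewer's yeast clumps and settles. FLO9 had 10.58 with Flavourzyme, against 5.58 and 5.35 in the maltose controls (5.12 ± 0.29 or 34.8-fold, adjusted p = 0.00929), and all 4 glucose arrays were between 4.85 and 5.33. YAL065C, a reading frame similar to flocculins, had 11.61 against 6.24 and 5.68 (5.65 ± 0.53, adjusted p = 0.0435), with glucose values from 4.43 to 5.54. Flocculin genes are alike in sequence and the probe set of FLO9 is a shared one, so the signal may come from more than 1 of them. FLO1 was below background, at 2.79 against 2.46 and 2.10, FLO10 had 5.62 against 5.49 and 5.33, and FLO11, a flocculin of invasive growth, had 8.73 against 10.79 and 10.70 (−2.02 ± 0.68, adjusted p = 0.162). The regulators differed among themselves, with the activator FLO8 at −0.41 and MGA1 at 2.41 ± 0.99, neither of them called. Over the 14 genes of the list the median was 0.53.

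The list of DAN/TIR mannoproteins and sterol uptake had the highest median of the 61 lists of pathways, 0.96 over 18 genes. Of these, 9 were at least 1 above both maltose controls (50%, against 5.89% of all genes) and 0 at least 1 below (7.58% of all genes). The 2 called genes both rose (11.1%, against 0.905% of all genes). The members were uneven, and of the mannoproteins DAN1 alone was called. DAN1, a mannoprotein of anaerobic cells, rose to 9.08 against 7.36 and 7.23 (1.78 ± 0.28, adjusted p = 0.0477). The other called gene, ROX1, encodes the haem-dependent repressor of hypoxic genes, and it rose to 10.29 against 7.58 and 7.81 (2.59 ± 0.32). MOT3, a second repressor of such genes, had 9.89 against 7.68 and 7.69 (2.21 ± 0.36, adjusted p = 0.0502), just outside the threshold, and UPC2, an activator of sterol genes, had 10.03 against 7.78 and 7.84 with an error of 1.09, since the glucose controls were at 10.31 and 7.49. The sterol transporters PDR11 and AUS1, picked after their values were seen, had 11.96 against 9.86 and 9.89 and 10.43 against 9.16 and 9.16. The mannoproteins TIR1, TIR4, TIR2, TIP1 and DAN4 had smaller differences, from −0.02 for TIP1 to 0.66 for TIR1, of which those of TIP1 and DAN4 changed sign under alternative settings, and DAN4 was below background. The list holds further mannoproteins, which were not called and whose differences lay outside this range. ECM22, a further sterol regulator, had 8.35 against 9.40 and 9.33 (adjusted p = 0.0787). TIR1, TIR4, TIR2, TIP1, DAN4 and ECM22 were also picked after their values were seen.

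Of 27 genes of ergosterol and mevalonate synthesis, 25 lay above both maltose controls (42.9% of all genes did), 6 by at least 1 (22.2%, against 5.89%), and 0 were called, with a median of 0.69. HMG1, a reductase that sets the rate of the mevalonate pathway, had 13.05 against 11.29 and 11.38 (1.72 ± 0.42, adjusted p = 0.0927), ERG7, the lanosterol synthase, 10.98 against 9.86 and 9.72 (1.19 ± 0.24, adjusted p = 0.0687) and ERG11, the demethylase that azoles inhibit, 14.27 against 13.08 and 13.20. ERG25, a methyl oxidase picked after its values were seen, had 13.57 against 11.64 and 11.64 (adjusted p = 0.116). All 4 values on the Flavourzyme array exceeded those on the 6 other arrays.

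Among genes of carbon use, 1 of 23 of hexose transport and glucose sensing rose (4.35%). So did 1 of 16 of gluconeogenesis and the glyoxylate cycle (6.25%) and 2 of 44 of the respiratory chain and ATP synthase (4.55%). The share of all genes called higher was 0.905%. HXT5, a hexose transporter of cells that grow slowly, rose to 12.65 with Flavourzyme, against 9.63 and 9.73 in the maltose controls (2.97 ± 0.38). The transporters HXT1, HXT2, HXT3 and HXT4, picked after their values were seen, had differences of 0.33, −1.19, −0.996 and −1.08 and adjusted p from 0.293 to 0.74. ACS1, the acetyl-CoA synthetase of respiring cells, rose to 12.32 against 10.05 and 10.07 (2.25 ± 0.26), and the glucose arrays were from 12.09 to 12.49. PCK1, of gluconeogenesis, had 10.85 against 8.71 and 8.55 (adjusted p = 0.144) with glucose values from 11.42 to 13.28. The 16 genes of gluconeogenesis and the glyoxylate cycle had a median of 0.63, with 4 at least 1 above both controls (25%, against 5.89% of all genes). HAP4, the activator of respiratory genes, rose to 12.82 against 10.72 and 10.70 (2.11 ± 0.34), as did CYC1, cytochrome c, with 11.70 against 9.96 and 9.97, and NDE1, an external NADH dehydrogenase, with 9.76 against 8.24 and 8.23. The 44 genes of the respiratory chain and ATP synthase together had a median of 0.16, and the 18 of the tricarboxylic acid cycle −0.17 with 0 called. CYB2, the lactate dehydrogenase of the respiratory chain, rose to 12.54 against 10.46 and 10.37; it was picked after its value was seen.

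Hexokinase 2 (HXK2), which also acts in glucose repression, had 7.53 with Flavourzyme against 10.23 and 10.15 (−2.66 ± 0.58, adjusted p = 0.0787), the lowest of the 7 arrays. The 31 genes of glycolysis and alcoholic fermentation had a median of −0.20, with 0 called. Of the genes that take up and split maltose, MAL31, a maltose permease, had 12.34 against 13.67 and 13.46 (−1.22 ± 0.32, adjusted p = 0.107), and MAL32, a maltase read from a shared probe set, 13.01 against 14.31 and 14.23 (−1.26 ± 0.23, adjusted p = 0.063). IMA5, an isomaltase, had 7.79 against 10.38 and 10.36, with glucose values from 9.70 to 12.38, and MAL11, a permease for several alpha-glucosides, 8.26 against 7.89 and 7.94. TKL1, the transketolase of the pentose phosphate pathway, fell to 8.59 against 10.83 and 11.01 (−2.34 ± 0.29); it was below all 4 glucose values, which lay from 10.21 to 10.88.

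Of 24 genes that mark stationary phase, 2 rose (8.33%, against 0.905% of all genes) and 19 lay above both maltose controls (42.9% of all genes did). SPG4, required for survival in stationary phase, rose to 13.57 with Flavourzyme, against 11.34 and 11.34 (2.23 ± 0.26), and GIS1, an activator of genes of the diauxic shift, to 12.27 against 10.59 and 10.70 (1.63 ± 0.24). The median of the list was 0.28, and 6 members were at least 1 above both controls (25%, against 5.89%). Heat shock proteins and chaperones had a median of −0.12 over 37 genes. KAR2, the Hsp70 of the endoplasmic reticulum, rose to 13.50 against 11.92 and 11.85 (1.61 ± 0.26), whereas SSB1, SSB2 and SSA2, Hsp70 proteins of the cytosol, had differences of −1.08, −1.33 and −1.42 with adjusted p of 0.0687, 0.0758 and 0.0722. The probe set of SSB1 is a shared one. In oxidative stress defence SKN7, a transcription factor, rose to 11.36 against 8.95 and 8.84 (2.47 ± 0.28), and GRX5, a mitochondrial glutaredoxin of iron-sulfur cluster assembly, fell to 9.44 against 11.71 and 11.87 (−2.35 ± 0.24). The thioredoxin peroxidase TSA2 and the sulfiredoxin SRX1 had differences of 2.31 ± 0.42 and 2.38 ± 0.49 with adjusted p of 0.063 and 0.0723.

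Genes of other cell states were read for comparison. Of 42 genes of mating and pheromone response 2 rose (4.76%, against 0.905% of all genes). FUS1, a protein of cell fusion in mating, had 8.21 against 5.21 and 5.11 (3.05 ± 0.48, adjusted p = 0.0477), and STE6, the exporter of a-factor, 9.64 against 7.91 and 7.69 (1.84 ± 0.26). On the glucose arrays FUS1 lay from 4.76 to 5.86, so it was high on the maltose Flavourzyme array alone. The list had a median of 0.12 and 5 members at least 1 above both controls (11.9%, against 5.89% of all genes). Of 63 genes of meiosis and sporulation 0 were called, 18 were below background and the median was 0.15.

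Several of the largest changes were in genes of single functions. HMX1, the haem oxygenase that recovers iron from haem, rose to 12.25 with Flavourzyme, against 8.44 and 8.05 (4.004 ± 0.36 or 16.04-fold), and the glucose arrays were from 12.73 to 13.44. INO1, which makes inositol phosphate for phospholipids, rose to 12.25 against 8.98 and 8.95 (3.29 ± 0.51, adjusted p = 0.0477), above all 4 glucose values, which reached 11.92. DIA1, linked to invasive growth, had 12.23 against 8.46 and 8.69, TRS31, a subunit of the TRAPP complexes of vesicle traffic, 12.05 against 9.20 and 9.13, and FAT3, of fatty acid uptake, 12.65 against 10.44 and 10.20, and all 3 were called. The reading frames YDR042C, YOR019W and YMR317W rose by 2.63, 2.61 and 2.57.

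Among the genes that fell, ADK1, the main adenylate kinase, had 8.70 against 11.44 and 11.25 (−2.64 ± 0.27), with glucose Flavourzyme values of 9.79 and 9.67 and glucose control values of 8.86 and 8.46. TOS6, a protein anchored in the cell wall, fell to 6.09 against 8.69 and 8.74, and TDA2, of the actin patches, to 6.93 against 9.39 and 9.68. YDL085C-A fell by 2.63, but its mean over the maltose arrays is below background. YAH1, the mitochondrial ferredoxin, PAM16 and MGR2, both of protein import into the mitochondrion, fell by 2.27, 1.62 and 1.76, and FCY2, the permease of purines and cytosine, by 1.39; these 4 were picked after their values were seen. PHO85, the cyclin-dependent kinase of the phosphate response, and VTC1, of polyphosphate synthesis, fell by 1.58 and 1.46.

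**Figure D3:**
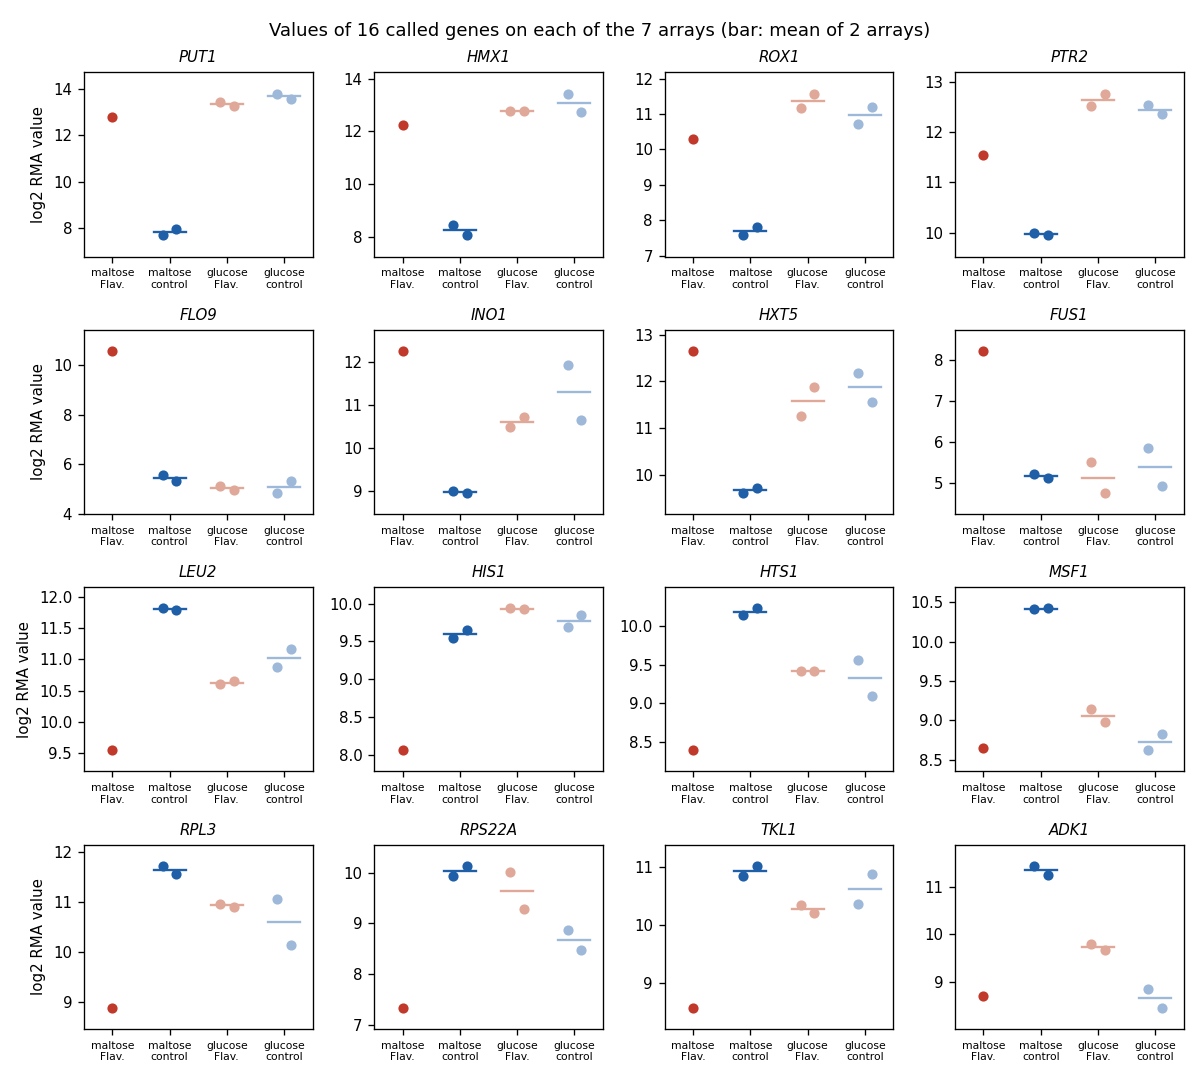
Log2 values of 16 genes that were called in maltose wort, on the maltose Flavourzyme array, the 2 maltose controls, the 2 glucose Flavourzyme and the 2 glucose control arrays (points; bars are means of 2 arrays, and each y axis has its own range). The top row shows genes whose maltose controls stood below all other arrays, and FLO9 and FUS1 are high on the maltose Flavourzyme array alone.

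Some of the widest distances were not called, in genes whose glucose controls disagreed. FDH1, a formate dehydrogenase, had 6.45 with Flavourzyme, against 10.48 and 10.45 in the maltose controls, the lowest difference of all genes (−4.02 ± 1.06, adjusted p = 0.107), with glucose controls at 5.98 and 8.87. PBI1, a gene of unknown function, had 13.14 against 9.57 and 9.36 (3.68 ± 0.74, adjusted p = 0.0687), and AAD4, an aryl-alcohol dehydrogenase read from a shared probe set, 13.42 against 9.66 and 9.43 (3.87 ± 1.01, adjusted p = 0.104). MCH5, a riboflavin transporter, had 12.67 against 10.04 and 9.92 (2.69 ± 0.49, adjusted p = 0.063). FDH1, PBI1 and MCH5 were picked after their values were seen.

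The list of genes the study names holds 39, not all of them reported from these arrays. Of these, 3 rose (7.69%, against 0.905% of all genes) and 5 fell (12.8%, against 1.08%), all described above. Many were picked by the study from these same arrays, so the shares are no independent evidence. Of the other genes of this list, ADI1, of methionine salvage, had 11.23 against 9.65 and 9.66 (1.57 ± 0.26, adjusted p = 0.050002). ARO80, the activator of aromatic amino acid degradation, had 9.37 against 8.43 and 8.38, and ARG82, an inositol polyphosphate kinase, 9.96 against 9.16 and 9.07. CIT2, the peroxisomal citrate synthase, had 12.56 against 11.61 and 11.52 and GDH3, a glutamate dehydrogenase, 12.35 against 11.77 and 11.64. Below the controls lay GRS1, VAS1 and FRS2, tRNA synthetases for glycine, valine and phenylalanine, with differences of −1.14, −0.79 and −0.76, MET5 of sulfite reduction with −1.01, ILV6 of branched-chain synthesis with −0.98 and the asparagine synthetase ASN1 with −0.97. None of these passed the test, and the remaining genes of the list that were not described above lay between −0.50 for HIP1, the histidine permease, and 0.69 for HAP1, a haem-dependent activator.

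The gene lists are set side by side in the plot of list medians. Of the 61 lists of pathways, the lowest medians were those of lysine synthesis (−1.22), cytoplasmic ribosomal proteins (−1.20) and mitochondrial tRNA synthetases (−1.10), and the highest those of DAN/TIR and sterol uptake (0.96), ergosterol synthesis (0.69) and gluconeogenesis (0.63). Under the alternative normalizations, filters and arrays tried, each of these 6 kept its sign. All alternatives used the same single maltose Flavourzyme array, and the 6 lists were picked as the most extreme, so this is no independent support. Thiamine synthesis had 0.47 over 17 genes with 0 called, which became 0.23 without maltose control 2, and THI4, its thiazole synthase, had 10.37 against 8.09 and 8.01. Lists with medians within 0.2 of 0 and 0 members called included autophagy, histones (9 genes, 0.07), DNA replication (53 genes, −0.17) and nitrogen signalling and GATA factors (29 genes, 0.06). Of the 112 called genes 61 belong to a list and 51 to none.

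**Figure D4:**
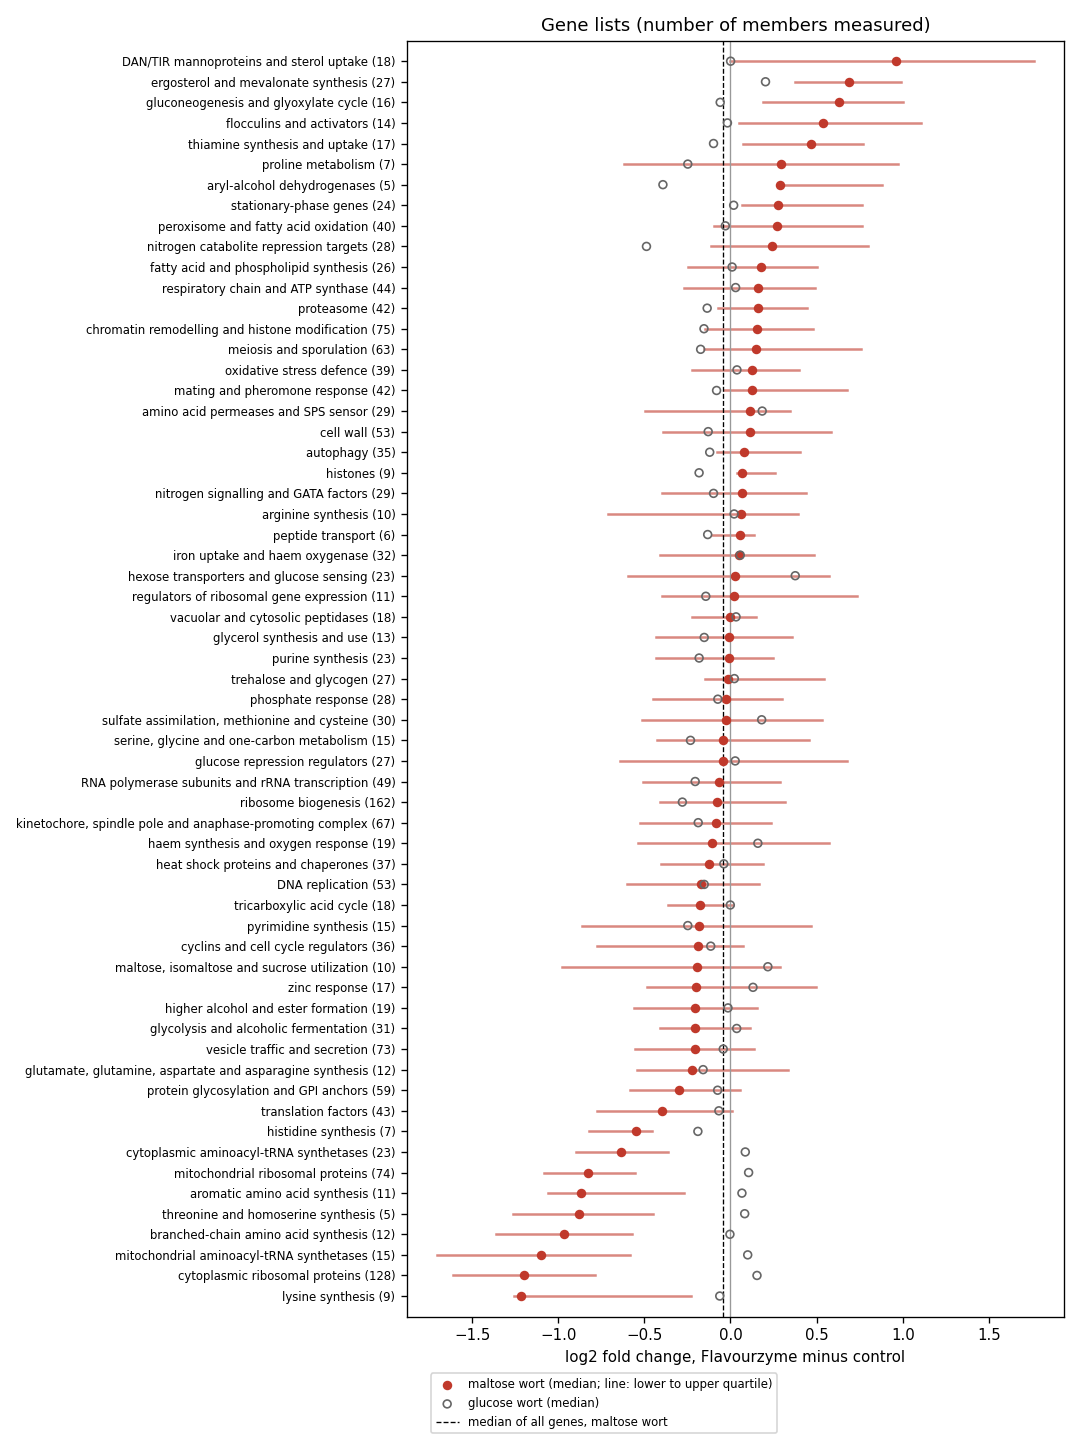
Median log2 difference between Flavourzyme and control for each of 61 gene lists, in maltose wort (filled red points, with lines from the lower to the upper quartile of the members) and in glucose wort (open points); the dashed line is the median of all genes in maltose wort, −0.04. In maltose wort the medians run from −1.22 for lysine synthesis to 0.96 for DAN/TIR and sterol uptake, and in glucose wort the same 2 lists had −0.06 and 0.00.

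Whether the difference in maltose wort was another than that in glucose wort was asked with the interaction term. It was called for 2 genes, PUT1 and FLO9 (0.0355% of 5635; 1076 at an unadjusted p under 0.05), and the 2 contrasts share no array. In glucose wort PUT1 differed by −0.32 ± 0.21 between Flavourzyme and control, which makes an interaction of 5.30 ± 0.33 (adjusted p = 0.0305), and FLO9 by −0.05 ± 0.24, with an interaction of 5.17 ± 0.38 (adjusted p = 0.0374). The interaction lost both calls when any 1 of the maltose controls or glucose Flavourzyme arrays was left out, and it was called in 1765 genes without glucose control 1 and in 2200 without glucose control 2. In glucose wort itself 0 genes were called (limma; 393 at an unadjusted p under 0.05), against 563 without glucose control 1 and 1874 without glucose control 2. For the genes called in maltose wort the median difference in glucose wort was −0.08 for the 51 that rose and 0.30 for the 61 that fell. Cytoplasmic ribosomal proteins had a median of −1.20 in maltose wort and 0.15 in glucose wort, and DAN/TIR and sterol uptake genes 0.96 and 0.00. Across the 5635 genes, which are not independent replicates, the 2 sets of differences correlated with r = −0.26.

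**Figure D5:**
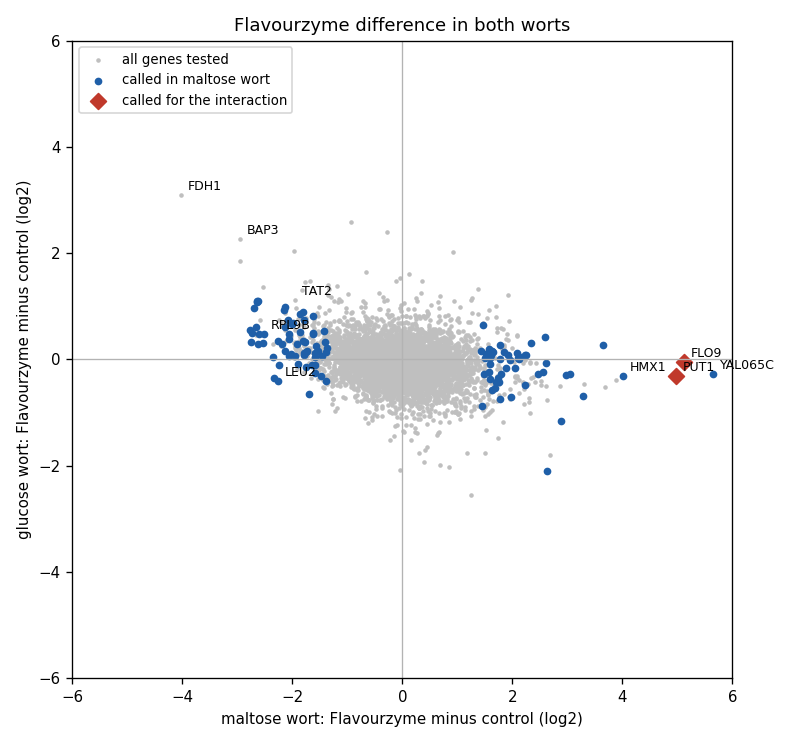
Each point is 1 of 5635 genes, with the log2 difference between Flavourzyme and control in maltose wort on the x axis and in glucose wort on the y axis. Genes called in maltose wort (blue) lie near 0 on the y axis for the most part, and PUT1 and FLO9 (red diamonds) are called for the interaction, at 5.30 and 5.17.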

How the data were processed

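RNA of 7 samples was hybridized to Affymetrix Yeast Genome 2.0 arrays, 1 array per sample. The deposited values are log2 expression values, which the authors made from scans of Affymetrix Microarray Suite by RMA in the affy package of R (background correction, quantile normalization over all probe sets, median polish). For affy and R no version is given in the sources used here. The table of probe set annotation gave 5685 probe sets for single S. cerevisiae genes, of which 116 of the genes kept are read by shared probe sets. A linear model with 4 group means was run in limma 3.58.1 (R 4.3.3), with 3 residual degrees of freedom and eBayes moderation (prior SD 0.251). The single maltose Flavourzyme array was assumed to vary like the other groups. Tests were two-sided with Benjamini-Hochberg adjustment, and genes with adjusted p under 0.05 are described as called. The 62 gene lists, one of them holding the genes the study names, were described by counts and medians, with no test. The genes, the lists and the comparison were chosen with earlier results of these data known. Genes to name were taken from the 15 called genes with the largest rise and the 15 with the largest fall, in each list the 5 genes of lowest p, the members of lists of up to 15 genes, the genes called for the interaction and those the study names, and members of the lists that are not named are covered by counts and ranges; others were picked after their values were seen. The number of arrays limits the precision. Alternatives covered the samples fitted, moderation, normalization, dim and shared probe sets, the threshold, a replicate block and leaving out each array. Searches for promoter motifs were planned but not run, since no promoter sequences were used here.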

Additional observations from a re-analysis of the deposited data

Results flagged for a closer look

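PUT1 and FLO9 differed between the worts in their response to Flavourzyme by the interaction test, with 5.30 and 5.17 on the log2 scale. The interaction was called in neither gene when a maltose control or a glucose Flavourzyme array was left out. The 2 genes are unlike in their glucose values: PUT1 was between 13.28 and 13.81 on the 4 glucose arrays, and FLO9 between 4.85 and 5.33. Signals outside the genes tested also differed. The 4 poly-A spike-in probe sets averaged 9.10 on the maltose Flavourzyme array against 6.88 and 6.88 on the maltose controls, and from 7.95 to 12.1 on the glucose arrays. The 7 rRNA probe sets averaged 9.97 against 8.89 and 8.97, and from 11.4 to 13.1 on the glucose arrays. Their part in the results was not tested.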

How the results depend on the processing

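The count of 112 genes called in maltose wort, 51 higher and 61 lower, moved with the estimate of the spread. It was 3632 (1651 and 1981) with only the 3 maltose arrays, 9 (5 and 4) without moderation, as in the methods' model, 180 (92 and 88) with a trend of the prior and 423 (204 and 219) with quantile normalization over the S. cerevisiae probe sets. Of the 9 genes called without moderation, only 3 were among the 112. Leaving out 1 array gave 0 to 2166 genes (0 to 941 higher, 0 to 1225 lower), 0 to 2200 for the interaction and 0 to 1874 in glucose wort, a count added after the data were seen. The interaction, called in 2 genes, was called in 1 without moderation, with median centring or without shared probe sets, in 50 with the trend and in 167 with quantile normalization. With the replicate block 2 genes were called, 2 higher and 0 lower, and 0 for the interaction. Deviations of same-numbered arrays correlated by 0.007, 0.10 and 0.18 between groups. The labels do not say whether the replicate numbers pair the samples. These correlations cannot decide it, since they rest in part on the small differences between the maltose controls. Other counts stayed within 1.5 times. Of the 62 lists 50 kept the sign of their median and 12 with medians near 0 did not. Every setting used the same single maltose Flavourzyme array, so a kept sign does not stand in for a replicate. Of the 50, 23 moved by over 1.5 times, 3 of them with a median of 0.3 or more: thiamine synthesis had 0.23 without maltose control 2, and with the replicate block gluconeogenesis had 0.42 and flocculins 0.34. With that block nitrogen catabolite repression targets had 0.12 and the list of amino acid permeases and their sensor 0.0036. Of the 25 named genes that moved by over 1.5 times, 4 had a difference of 1 or more, and with the block HXT2 was at −0.55, HXT4 at −0.40, TAT2 at −1.09 and PUT4 at 0.71. The mean over its probe sets put RPL8A at −1.72. Some fold changes near 0 changed sign. With quantile normalization DAN4 was at −0.068, MSK1 at 0.066, OPT1 at 0.072 and TRP5 at 0.0066. With median centring MSK1 was at 0.0031, OPT1 at 0.020 and TIP1 at 0.0070. With the replicate block DAN4 was at −0.0498, MSK1 at 0.098, OPT1 at 0.016, TRP3 at 0.031 and UBR1 at −0.016. Leaving out a maltose control gave −0.055 to 0.017 for MSK1, −0.0019 to 0.11 for MSR1 and −0.083 to 0.053 for TIP1.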
